A study of Mus musculus with 3 samples.

Results

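The regions described here are stretches of acetylated chromatin that lie at the ends of neighbouring protein-coding genes. They were chosen by the presence of a called H3K27ac peak in each of 2 replicates and by distance: overlapping peaks were merged, and a merged region with a peak of each replicate was kept if it came within 1 kb of the annotated ends of 2 or more protein-coding genes and of no lncRNA gene end. Of the 4192 regions on chromosomes 1 to 19 and X with a peak of each replicate, 644 (15.4%) met this rule. A further 1896 regions came within 1 kb of a single protein-coding gene and no lncRNA, and 447 of both a protein-coding and a lncRNA gene end.

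The study measured H3K27ac, the acetylation of histone H3 at lysine 27, by chromatin immunoprecipitation in double-negative thymocytes, the early T cell precursors that carry neither CD4 nor CD8, sorted here as CD25+ and CD44-/+. The cells came from the thymus of wild-type C57BL/6J mice aged 5 to 7 weeks and were fixed after sorting, and the chromatin was precipitated first with an antibody to histone H3 and then with one to H3K27ac. The same group supplied both replicates, and the 1 labelled input was not analysed here, so there is no contrast of conditions and no test across samples. The labels do not say whether the replicates came from separate animals, and a peak's fold in a bulk sample cannot tell more cells with the mark from more mark per cell.

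H3K27ac marks active promoters and enhancers, and at promoters it lies on the nucleosomes that flank the open start site. Where genes start close together on opposite strands, a head-to-head arrangement, their starts share a stretch of open DNA, commonly called a bidirectional promoter. Such promoters are common in mammals, tend to be rich in CpG dinucleotides, and often serve genes of DNA repair, the mitochondrion and other functions that every cell needs. Genes that meet tail to tail share only the sites where transcription ends.

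The labelled cell type was checked on fixed marker genes with an end within 1 kb of any shared region, a state found for 16.9% of all 21631 protein-coding genes. It was found for 4 of 12 T cell markers and for none of 10 B cell, 10 myeloid, 7 erythroid and 8 thymic stroma markers, nor for Cd4, Cd8a or Cd8b1. The T cell markers among the coding-pair regions were Cd3g and Cd3d alone. The peak lists hold no read counts, so the depth behind each value is unknown. Of the members, 166 (25.8%) had a q-value of at most 0.05 in replicate 1, 304 (47.2%) in replicate 2 and 107 (16.6%) in both, so most members have a q-value above 0.05 in at least 1 list. This was not particular to members. A q-value of at most 0.05 in both was found for 284 of 1896 regions at a single coding gene. At coding and lncRNA ends it was found for 75 of 447 regions.

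The DNA between the starts of head-to-head pairs is short enough to be printed. The 8 stretches below belong to named pairs with a DNA repair gene or a pair known from textbooks, and they run from the base after the start of the left gene to the base before the start of the right gene. Sequences and starts are those of RefSeq (GRCm38.p6, the mm10 build), on the plus strand, 5′ to 3′. They lie at chr11:69580251-69580358 (Wrap53 and Trp53), chr11:101551956-101552106 (Brca1 and Nbr1), chr11:87404955-87405064 (Rad51c and Tex14), chr7:28741822-28741967 (Mrps12 and Sars2), chr17:34187331-34187555 (Psmb9 and Tap1), chr9:14784574-14784653 (Ankrd49 and Mre11a), chr7:122132947-122133040 (Palb2 and Dctn5) and chr14:50924894-50924948 (Osgep and Apex1). Capitals mark matches, on either strand, to GGGCGG (the GC box of Sp and Klf factors), CCAAT (the NF-Y box) and CACGTG (an E-box). A match is a description of the letters and not evidence of binding. The starts are those of the promoter table, which for Trp53, Tex14, Sars2 and Palb2 differ from the outermost gene bounds used for all distances below.
Wrap53 and Trp53: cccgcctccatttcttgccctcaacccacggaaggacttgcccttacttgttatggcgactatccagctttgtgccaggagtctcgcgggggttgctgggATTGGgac
Brca1 and Nbr1: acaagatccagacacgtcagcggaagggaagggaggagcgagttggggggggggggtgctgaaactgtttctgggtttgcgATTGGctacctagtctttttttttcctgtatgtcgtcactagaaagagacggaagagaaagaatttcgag
Rad51c and Tex14: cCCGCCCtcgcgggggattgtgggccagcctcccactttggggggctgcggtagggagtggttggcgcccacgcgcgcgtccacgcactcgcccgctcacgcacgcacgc
Mrps12 and Sars2: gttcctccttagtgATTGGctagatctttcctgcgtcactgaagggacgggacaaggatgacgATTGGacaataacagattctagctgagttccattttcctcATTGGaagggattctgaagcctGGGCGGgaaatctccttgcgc
Psmb9 and Tap1: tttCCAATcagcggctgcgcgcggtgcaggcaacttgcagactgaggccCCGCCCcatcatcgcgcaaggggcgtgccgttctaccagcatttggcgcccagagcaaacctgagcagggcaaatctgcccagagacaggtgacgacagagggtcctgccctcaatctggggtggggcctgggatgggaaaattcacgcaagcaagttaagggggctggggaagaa
Ankrd49 and Mre11a: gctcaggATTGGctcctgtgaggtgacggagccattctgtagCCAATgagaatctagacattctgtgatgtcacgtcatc
Palb2 and Dctn5: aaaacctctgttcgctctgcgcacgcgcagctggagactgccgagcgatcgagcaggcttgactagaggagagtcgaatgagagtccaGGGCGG
Osgep and Apex1: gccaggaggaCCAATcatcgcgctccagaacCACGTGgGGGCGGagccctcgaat

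These stretches were 55 to 225 bp long. CCAAT or its reverse complement ATTGG was found in all but the Rad51c and Palb2 stretches, 3 times between Mrps12 and Sars2 and 2 times between Ankrd49 and Mre11a. These letters are common in promoter windows, which are described below and have other bounds than the stretches. They were in 43.0% of head-to-head member windows, 47.1% of windows of unreached close head-to-head pairs and 39.6% of all windows. The GC box was found in 5 of the 8, and none held TATAAA or CCGGAAG, the Ets core. The G and C content ranged from 49.3% between Mrps12 and Sars2 to 75.5% between Rad51c and Tex14, a stretch with 15 CpG dinucleotides in 110 bp.

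Most members lay over gene starts. Strand was given for both genes of the nearest pair in 494 of the 644 regions. Among these 494 pairs, 237 (48.0%) were head to head without overlap, and 156 (31.6%) were opposite-strand pairs whose first parts overlap, called overlapping heads below. Together they made up 393 pairs (79.6%). A further 71 pairs (14.4%) ran head to tail on 1 strand, 11 overlapped on 1 strand, and 10 were nested. Pairs that met by their tails were few, with 4 tail to tail and 5 with overlapping tails.

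The same broad split, with starts far above tails, appeared when all close gene pairs were counted. The annotation held 3417 pairs of protein-coding genes with ends within 1 kb of each other and no lncRNA end there, and 1 member region reached both genes in 630 of them (18.4%). The share was 42.0% of head-to-head pairs (239 of 569) and 42.9% of pairs with overlapping heads (142 of 331). It was 15.9% of head-to-tail pairs (66 of 416) and 16.7% of overlapping pairs on 1 strand (14 of 84). It was 1.41% of tail-to-tail pairs (6 of 425) and 2.05% of pairs with overlapping tails (6 of 292). Nested pairs stood at 16.7% on the same strand (8 of 48) and 7.69% on opposite strands (1 of 13). Pairs without a strand stood at 16.2% where the genes were apart and 8.39% where they overlapped. These counts include every pair that a region reaches, not only its nearest, and they describe the 2 peak lists without a test.

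**Figure D1:**
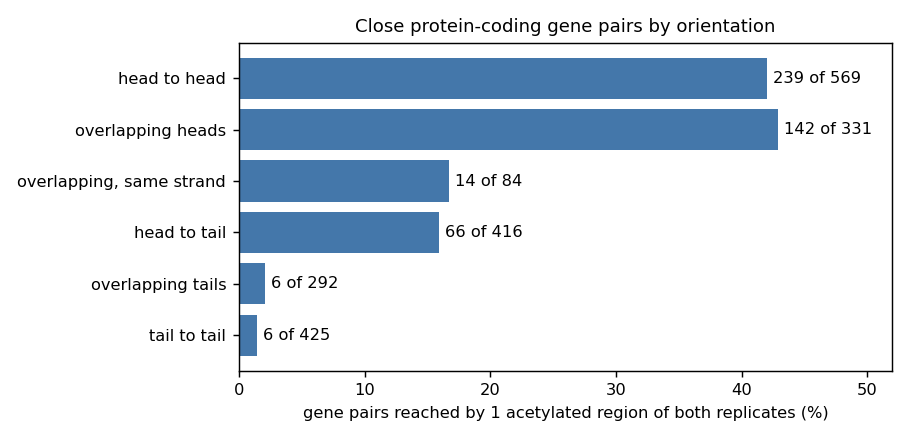
Horizontal bars give, for 6 orientations of close protein-coding gene pairs, the percentage with 1 member region that reaches both genes, and the text beside each bar gives the number of pairs reached and counted. Pairs that share their starts are at 42.0% and 42.9%, and pairs that meet by their tails at 1.41% and 2.05%.

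Within head-to-head pairs the share changed little with the distance between the starts up to 500 bp. It was 45.3% for starts 1 to 50 bp apart (68 of 150 pairs), 41.2% for starts up to 100 bp apart beyond these, 42.5% beyond that up to 200 bp and 43.5% beyond that up to 500 bp. For starts over 500 and up to 1000 bp apart it was 26.8% (11 of 41 pairs).

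End-to-end distance, the distance between the nearest ends of the genes that a region reaches, had a median of 185 bp over all members, with quartiles of 63 and 516 bp. At head-to-head pairs the median was 100 bp, and 119 of 237 pairs had starts at most 100 bp apart. Overlapping heads had a median of 295 bp and head-to-tail pairs of 641 bp. The gene models of overlapping heads shared a median of 360 bp. Where models overlap, the end-to-end distance is not a gap, and such pairs are included in the median over all members. The rule sets an upper bound on this distance, since a region reaches only 1 kb past its own edges. In 11 members the nearest ends coincided, among them Htd2 and Rpp14 on chromosome 14, Gm21992 and Rbm14 on chromosome 19 and Med20 and Gm20517 on chromosome 17, whose models share a boundary and are not separate neighbours.

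**Figure D2:**
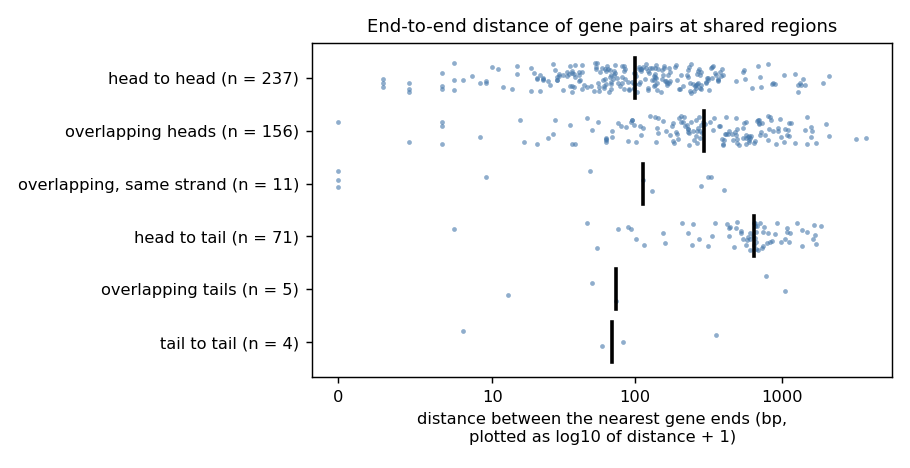
Each point is a member region, placed by the distance in bp between its nearest gene ends (horizontal axis, plotted as log10 of distance + 1) and by orientation (rows, with n), and vertical bars are medians. Head-to-head pairs centre on 100 bp and head-to-tail pairs on 641 bp. In the rows of overlapping genes the distance is not a gap.

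The closest head-to-head pairs had starts on adjacent bases. They were Capza1, a subunit of the actin capping protein, with St7l (fold enrichment 2.13 in replicate 1 and 3.07 in replicate 2), Ears2, the mitochondrial glutamyl-tRNA synthetase, with Ubfd1 (2.24 and 2.88), and Tcta with Rhoa, a small GTPase of the actin cytoskeleton (1.66 and 1.36). The fold enrichment of a region is here that of its tallest peak in each list, as given by the authors' caller. The widest-spaced head-to-head members were Mus81 and Cfl1 (2066 bp), Hcst and Nfkbid (1877 bp), and Meig1 and Dclre1c (1413 bp). At Mus81, a nuclease of recombination repair, and Cfl1, which encodes cofilin, replicate 1 had a peak of 2614 bp that touched both genes, and replicate 2 one of 306 bp inside Cfl1, with only 99 bp under both.

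Regions usually ran across both starts. Of the 237 head-to-head members, 193 (81.4%) covered both starts, and peaks reached into both genes in 154 regions in replicate 1, in 149 in replicate 2 and in 112 (47.3%) in both. The centre of the peaks lay a median of 237 bp from the middle between the starts in replicate 1 and 217 bp in replicate 2. In 176 of the 237 (74.3%) the same gene had more bp under the peak in both replicates, and in 57 the replicates favoured opposite genes. By the rule a member holds overlapping peaks of both replicates, so part of this agreement on side is built in.

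Hnrnpa2b1 and Cbx3 on chromosome 6 (51468335 to 51472059) showed the even form. These genes encode an RNA-binding protein and a heterochromatin protein, start 106 bp apart, and had 1126 and 1285 bp under the replicate 1 peak and 1714 and 1906 bp under the replicate 2 peak. Atm and Npat showed the uneven form: both peaks (563 and 500 bp) lay wholly within Npat, the regulator of histone gene transcription, and 0 bp of Atm, the break-response kinase, were covered in either replicate. Wrap53 and Trp53 were alike in this, with 890 and 910 bp in Trp53, the p53 tumour suppressor gene, and none in Wrap53. At Rad51c and Tex14 the covered gene was Rad51c, a gene of recombination repair, with 857 and 411 bp. At Brca1 and Nbr1 the replicates differed, since replicate 1 covered 953 bp of Nbr1, an autophagy receptor gene, and none of Brca1, while replicate 2 covered 862 bp of Nbr1 and 197 bp of Brca1.

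**Figure D3:**
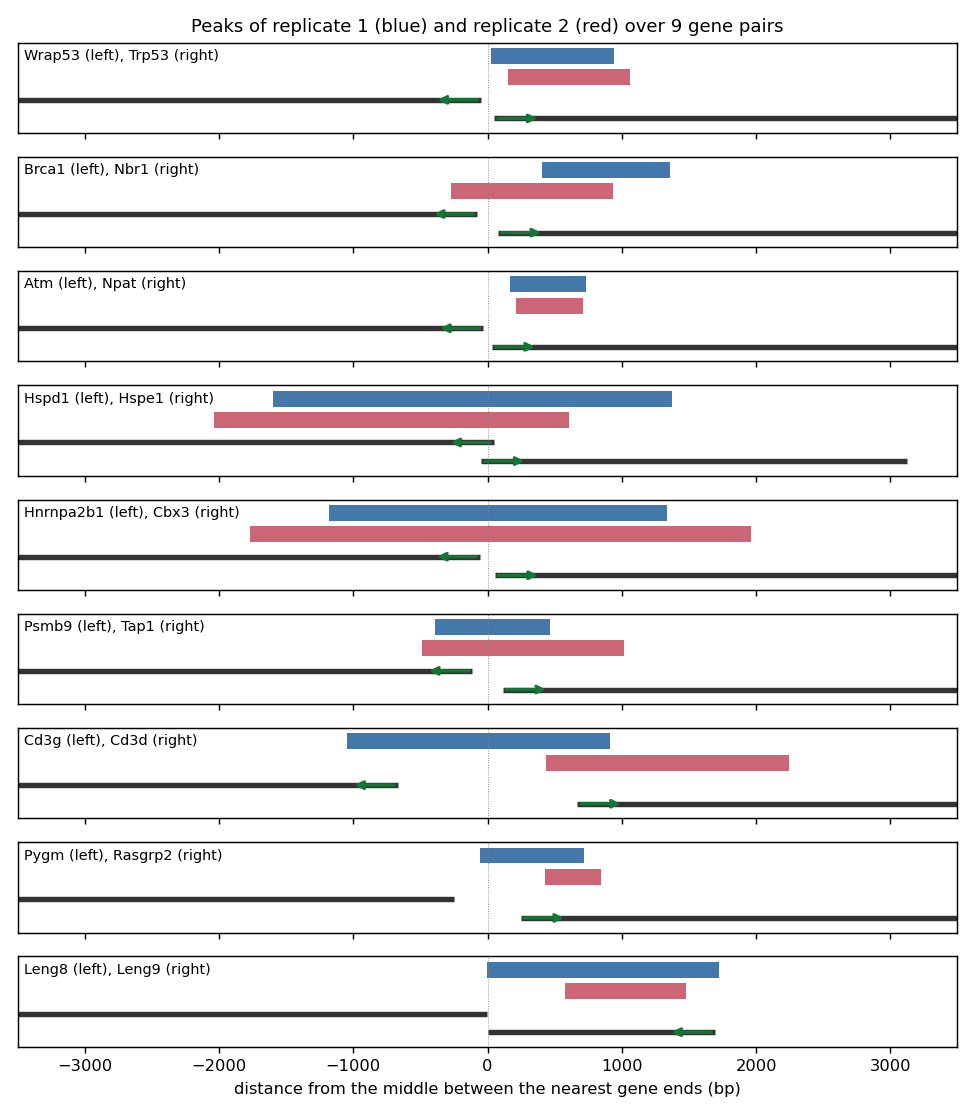
For 9 gene pairs, bars give the extent of the peaks of replicate 1 (blue) and replicate 2 (red), and black lines the genes (left gene above), against the distance in bp from the middle between the nearest gene ends; green arrows mark starts and their direction. The peaks span both starts at Hnrnpa2b1 and Cbx3, and lie on the Npat and Trp53 side at Atm and Wrap53.

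Head-to-tail members lay mostly at the start of the downstream gene. Of 71, 54 (76.1%) covered that start and 28 (39.4%) the 3' end of the upstream gene, and in 63 (88.7%) the centre of the region was nearer the start. Pygm and Rasgrp2 on chromosome 19 (6398657 to 6399552) had the highest folds of the kind when ranked by the lower replicate, 4.03 and 5.68. The region covered the start of Rasgrp2, which encodes a guanine nucleotide exchange factor for Rap GTPases, and stayed 193 bp from the 3' end of Pygm, the muscle glycogen phosphorylase. At the most widely spaced, Mief1 and Atf4 (1812 bp), the region on chromosome 15 (80253776 to 80256187) covered the annotated start of Atf4, a factor of the amino acid stress response, and lay 404 bp from the end of Mief1. Slc25a38 and Rpsa (1673 bp) and Prr14 and Fbrs (1648 bp) followed the same pattern, with the starts of Rpsa and Fbrs covered. The shortest were Zfp513 and Ppm1g (5 bp), Spag7 and Camta2 (47 bp) and Madd and Nr1h3 (55 bp).

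The 4 tail-to-tail members reached a start as well in 3 cases. At Leng8 and Leng9 (3' ends 6 bp apart) the region ran over the whole of the short gene Leng9, including its start, with folds of 3.11 and 2.30. At Znhit2 and Tm7sf2 (353 bp apart) it ran over the whole of Znhit2, start included, at 2.12 and 3.13. H2ac21 and H2ac20 on chromosome 3 (59 bp apart) are short histone genes with H2bc21 beside them. The exception was Prkar1a and Fam20a, where the region lay inside Fam20a, 1000 bp from the 3' end of Prkar1a, with folds of 1.84 and 1.04. Of the 490 members with a strand for every gene reached, 488 (99.6%) reached at least 1 start and 416 (84.9%) at least 2. The other two were Prkar1a with Fam20a, and Snn with Txndc11. Of all gene ends reached with a known strand, 85.1% were 5' ends (1014 of 1192), against 95.6% at regions near a single coding gene (1520 of 1590).

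Known neighbouring gene pairs, most of them bidirectional, were listed by name to see which ones the peaks reached. Of 17 listed pairs, 9 were members. Over all close pairs, 42.0% of head-to-head pairs and 42.9% of pairs with overlapping heads were reached. The list was picked by name and includes ends over 1 kb apart, at Cd3d and Cd3g (1338 bp) and Rag1 and Rag2 (5724 bp, tail to tail). Besides Atm and Npat, Brca1 and Nbr1, and Wrap53 and Trp53, the members were Mcm4 and Prkdc, Hspd1 and Hspe1, Psmb9 and Tap1, Fen1 and Tmem258, Mrps12 and Sars2, and Cd3d and Cd3g. Hspd1 and Hspe1, the mitochondrial chaperonin and its partner, had a wide region on chromosome 1 (55086155 to 55089572), with 2977 bp under the peak of replicate 1 and 2645 bp in replicate 2, at folds of 2.53 and 2.40. Mcm4, a subunit of the replicative helicase, and Prkdc, the DNA-dependent kinase of end joining, have ends 44 bp apart (strand not given) on chromosome 16 and had folds of 2.27 and 2.21. Psmb9, an immunoproteasome subunit, and Tap1, the peptide transporter of antigen presentation, had folds of 1.75 and 2.96, and a second member joined the 3' end of Tap1 to Psmb8, another immunoproteasome subunit (2.17 and 2.25). Among the others, Surf1 and Surf2, Ppat and Paics, Sirt3 and Psmd13, Tk1 and Afmid, Col4a1 and Col4a2, and Rag1 and Rag2 had no shared region at either gene.

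The CD3 pair was the only member with T cell identity genes. Cd3g and Cd3d encode chains of the CD3 complex of the T cell receptor and start 1338 bp apart, head to head, on chromosome 9. The peak of replicate 1 (44980055 to 44982008) ran over both starts, and that of replicate 2 (44981538 to 44983348) lay over the start and body of Cd3d, with 471 bp under both. Folds were low, 1.23 and 1.08, with −log10 q of 6.78 and 3.80. None of the 19 T lineage factors and none of the 12 genes of the double-negative stage was at a member region, although 8 and 4 of them had an end near some shared region. Only 3 of the 19 and 1 of the 12 have a close coding neighbour free of lncRNA ends.

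Genes of DNA breaks and repair were counted against all genes. A member region reached 6.04% of all protein-coding genes (1306 of 21631), and 23.0% of the 5276 that have another coding gene end within 1 kb and no lncRNA end there. These 5276 include 1214 of the 1306 reached genes, since the rule asks for ends of 2 or more coding genes near 1 region. That reached genes of a list have a close neighbour, here and below, is thus largely built in. Of 14 recombination and end joining genes, 5 were reached (35.7%), and all 5 were among the 9 with a close neighbour. Besides Atm and Prkdc they were Dclre1c, the Artemis nuclease that opens hairpins in V(D)J recombination, Nhej1, the XLF end joining factor, and H2ax, the histone variant phosphorylated at breaks. Dclre1c had a member region at each end, with Meig1 at the start (2.22 and 2.78) and with the start of Suv39h2 at its 3' end (2.56 and 3.14). Nhej1 had folds far apart, 1.65 in replicate 1 and 7.23 in replicate 2.

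Of 38 DNA repair genes, 8 were reached (21.1%), from the 25 with a close neighbour. Fancd2, of the Fanconi anaemia pathway, has an end 2 bp from the start of Emc3 and had folds of 3.35 and 3.55, the highest of the list by the lower replicate, within a region of 710 bp on chromosome 6 (113531219 to 113531928). Ung, the uracil glycosylase, shared its region with Alkbh2, an alkylation repair enzyme (3.38 and 2.17), so that both genes of this pair act in repair. Apex1, the abasic site nuclease, had folds of 2.56 and 1.10 beside Osgep, Mre11a 1.36 and 1.503 beside Ankrd49, and Palb2 1.32 and 2.40 beside Dctn5, where only 17 bp lay under both replicates. Of 38 DNA replication genes, 5 were reached (13.2%): Mcm4, Mcm7 with Ap4m1 (2.37 and 2.13), Orc6 with Vps35 (2.19 and 2.32), Pcna, the sliding clamp, with Cds2 (2.16 and 2.24), and Fen1, the flap nuclease, with Tmem258 (2.01 and 3.89). Of 27 chromatin genes, 3 were reached (11.1%): Brd2 with H2-DMa (2.23 and 4.21), Kmt2d with Prkag1 (1.87 and 2.25) and Hdac3 with Rell2 (3.44 and 1.76). Among those with a close neighbour, the counts were 5 of 16 replication genes and 2 of 8 chromatin genes. The share over all protein-coding genes with such a neighbour was 23.0%, so the chromatin list is near it.

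Mitochondrial genes made up another group. Of 78 mitochondrial ribosomal protein genes, 18 were reached (23.1%), all among the 44 with a close neighbour. Of 100 respiratory chain genes, 22 were reached (22.0%), all among the 54 with such a neighbour, and the names Ndufaf8 and Sdhaf2 among them belong to assembly factors. Several members joined genes of different lists: Ndufs6 with Mrpl36 (21 bp apart, folds 1.94 and 3.65), Mrpl47 with Ndufb5 (302 bp, 2.37 and 2.40) and Mrpl32 with the proteasome gene Psma2 (205 bp, 2.30 and 2.66). Mrps12 and Sars2, a mitochondrial ribosomal protein and the mitochondrial seryl-tRNA synthetase, start 136 bp apart. Their peaks differed in size, 1911 bp with a fold of 2.06 in replicate 1 and 393 bp with 4.25 in replicate 2.

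Cytosolic ribosomal protein genes were reached in 16 of 91 cases (17.6%), proteasome genes in 7 of 51 (13.7%), aminoacyl-tRNA synthetases in 5 of 34 (14.7%) and RNA polymerase subunits in 4 of 28 (14.3%). Among those with a close neighbour, the counts were 14 of 32, 7 of 21, 5 of 16 and 3 of 16, in that order. The proteasome names include Psmg2, an assembly chaperone, and Psme3ip1, which is no subunit. Rpl36 with Lonp1, a mitochondrial protease, had the highest folds of the ribosomal list on both counts, 3.27 and 4.11, with ends 51 bp apart. Zinc finger genes were at 22 of 424 (5.19%), near the share of all genes, and chemosensory receptor genes at 0 of 1518. Among those with a close neighbour, the counts were 21 of 57 and 0 of 14. The share over all protein-coding genes with such a neighbour was 23.0%.

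**Figure D4:**
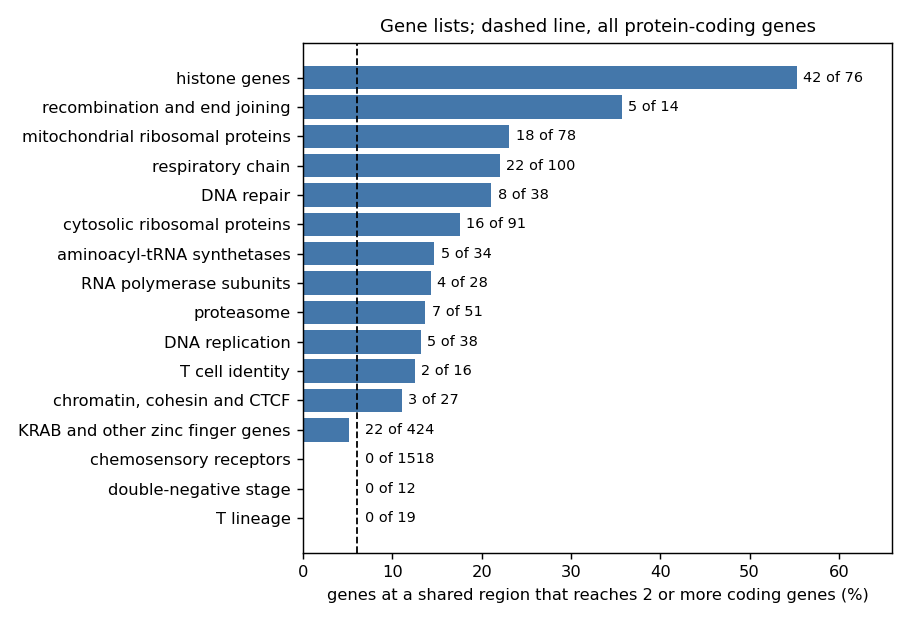
Bars give the percentage of each gene list that lies at a member region, with the number of genes reached and listed beside each bar, and the dashed line marks the 6.04% of all protein-coding genes. Histone genes reach 55.3%, and 3 lists are at 0.

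Histone genes had the largest share of any list, 42 of 76 (55.3%), and 38 of the 43 with a close neighbour. They encode the core and linker histones, most of them expressed in S phase, and stand in dense clusters on chromosomes 3 and 13. The 42 genes lay in 17 regions, in 16 of which both genes of the nearest pair were histone genes, and 7 regions reached 3 or more genes. Widths ran from 1428 to 5999 bp with a median of 2608 bp, and folds from 1.61 to 3.17 in replicate 1 and 1.97 to 3.78 in replicate 2. The region from 23570518 to 23576516 on chromosome 13 reached 5 genes, more than any other member: H2ac8, H2bc8, H2bc7, H2ac7 and H3c4, with folds of 2.56 and 2.99. It held several peaks in replicate 1 with 3029 bp in all, and a single peak of 5999 bp in replicate 2. Head-to-head pairs of H2A and H2B genes recurred, such as H2bc7 and H2ac7 (174 bp apart), H2bc23 and H2ac23 (168 bp) and H2ac15 and H2bc15 (164 bp). These genes are near-identical copies, and how reads that fit several places were treated is not given in the sources used here, so values of single histone genes are uncertain.

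Members were 284 to 11996 bp wide, with a median of 1256 bp and quartiles of 930 and 1685 bp. Regions at a single coding gene had a median of 1107 bp, and those at coding and lncRNA ends of 1297 bp. Width enters the rule, because a wider region reaches more ends, so this order is a description. The bp under peaks had medians of 1020 in replicate 1 and 868 in replicate 2, and a median of 53.4% of a member's width lay under peaks of both. In 632 members (98.1%) each replicate had a single peak.

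The widest members were of different kinds. The first and the third by width lay side by side on chromosome 6 (47666405 to 47678400 and 47680891 to 47686832), 11996 and 5942 bp, over the predicted genes Gm40367, Gm40365, Gm36327, Gm40364 and Gm40363, and replicate 2 had 5 and 2 separate peaks there. Genes named by a number were reached by 76 members (11.8%). The histone regions on chromosome 13 took 4 of the 10 widest places. The rest were Hcst and Nfkbid (4780 bp), an adaptor of the NKG2D receptor and an inhibitor of NF-kappa-B, Brd2 and H2-DMa (4327 bp), a bromodomain reader and a chain of the class II peptide loader, Zbtb25 and Zbtb1 (3969 bp), of which Zbtb1 is required for lymphocyte development, and Hnrnpa2b1 and Cbx3 (3725 bp). At Hcst and Nfkbid, replicate 1 had 4780 bp and replicate 2 had 2048 bp, which lay almost wholly in Nfkbid.

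Fold enrichment of the members had a median of 2.16 in replicate 1 (quartiles 1.92 and 2.45) and 2.35 in replicate 2 (2.09 and 2.81). Regions at a single coding gene had medians of 2.18 and 2.34, so the members were not taller. Folds of at least 4 in both replicates were found in 6 members. These were Cnbp and Gm44064 (7.49 and 5.01), Ccdc77 and Kdm5a (6.87 and 4.90), Tmem69 and Gpbp1l1 (4.61 and 5.08), Mboat7 and Tsen34 (4.56 and 4.88), Prdx5, Trmt112 and Esrra (4.45 and 6.52), and Pygm and Rasgrp2. Cnbp encodes a zinc finger nucleic acid-binding protein, Kdm5a a histone H3K4 demethylase and Tsen34 a subunit of the tRNA splicing nuclease. Timm9 with 2700049A03Rik (3.70 and 4.79), Tepsin with Ndufaf8 (3.39 and 3.90) and Pradc1 with Cct7 (3.32 and 4.15) followed with Fancd2.

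Folds differed between chromosomes. The 30 members on chromosome 9 had median folds of only 1.39 and 1.24, and yet median −log10 q of 8.54 and 8.49, and 27 of them had a q-value of at most 0.05 in both replicates. On chromosome 6 the 28 members had median folds of 2.64 and 3.14, and they supplied 8 of the 23 members with folds of at least 3 in both. Median folds were 2.11 and 1.97 over the 29 members on chromosome 14, and 2.19 and 2.61 over the 39 on chromosome 17. Of these, 8 and 10 had a q-value of at most 0.05 in both replicates. Of the 518 members outside chromosomes 6, 9, 14 and 17, only 49 (9.46%) had such a q-value in both. So the Atm, Mre11a and Cd3g regions on chromosome 9 have low folds with small q in both replicates. The Brca1 and Trp53 regions on chromosome 11 have higher folds in both and, in replicate 1, −log10 q of only 0.736 and 0.776, while in replicate 2 it was 3.03 and 1.81.

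Over all members, the replicates agreed more on extent than on height. Across members, which share their libraries and are not replicates, the folds had a Spearman's rho of 0.238 and a Pearson's r of 0.260 (n = 644), and 0.0703 and 0.126 over the 518 members outside those 4 chromosomes. The bp under peaks had 0.401 and 0.592 over all members, and 0.394 and 0.503 over the 518. On chromosomes 6 and 9 the bp also had the higher rho. On chromosome 14 the rho was 0.171 for bp and 0.323 for folds, and on chromosome 17 it was 0.355 and 0.352. The higher fold was over 1.5 times the lower in 126 members (19.6%), so a ranking of single members by fold is uncertain. Replicate 2 had the higher fold in 396 members (61.5%) and replicate 1 more bp under peaks in 402 (62.4%). These differences were not particular to members. Replicate 2 had the higher fold in 58.9% of regions at a single coding gene (1117 of 1896) and in 56.6% at coding and lncRNA ends (253 of 447). Median bp under peaks at a single coding gene were 861.5 in replicate 1 and 743.5 in replicate 2.

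**Figure D5:**
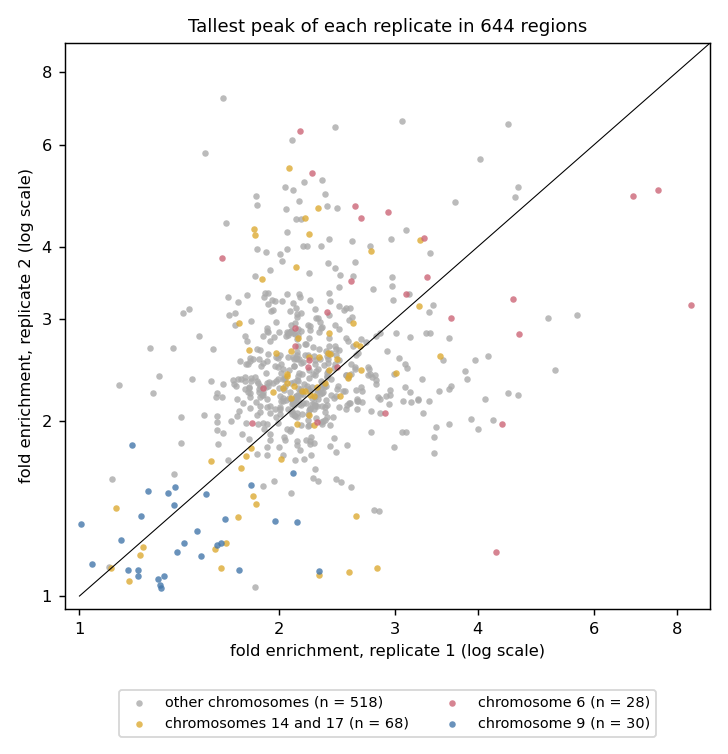
Each point is a member region, with the fold enrichment of its tallest peak in replicate 1 (horizontal) and replicate 2 (vertical), both on log axes, coloured by chromosome; the line marks equal folds. The 30 members on chromosome 9 sit at the low end, and the cloud of 518 members on other chromosomes has little slope.

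Sequence played no part in the rule. RefSeq listed a promoter window, 250 bases before to 50 after the start, for 1102 of the 1306 member genes, and where several were listed the nearest to the annotated start was used. The 474 windows of head-to-head members had a median G and C content of 61.7% and a median observed to expected CpG ratio of 0.893 (quartiles 0.749 and 1.02). All 17274 protein-coding windows had medians of 56.3% and 0.586. The closer comparison is with 648 windows of close head-to-head pairs that no member region reached, which had 61.3% and 0.794 (quartiles 0.649 and 0.920). The windows of 1507 genes whose start lay at a region of a single coding gene had 62.3% and 0.843.

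Motif letters were searched on both strands of each window. The Ets core CCGGAAG was in 30.6% of head-to-head member windows, 27.2% of overlapping-head members, 25% of unreached head-to-head windows, 19.5% of single-gene windows and 12.1% of all windows. The Yy1 motif AAGATGGCG was in 8.02%, 3.21%, 5.25%, 4.64% and 1.92% of these groups. The CRE letters TGACGTCA were in 5.27% and 5.13% of the member groups, 2.31% of unreached head-to-head windows, 5.51% of single-gene windows and 2.36% of all. The GC box GGGCGG stood at 66.5% in head-to-head members against 65.9% in the unreached pairs and 46.9% of all, and the Nrf1 letters GCATGCGC at 7.38%, 6.17% and 3.64%. CCAAT was at 43.0%, 47.1% and 39.6%, and the E-box CACGTG at 12.2%, 9.41% and 8.01%. TATAAA was at 5.70%, 5.56% and 13.4%, and the Runx letters AACCACA at 1.69%, 3.86% and 4.86%. Overlapping-head members had CCAAT in only 29.5% of windows, below the 39.6% of all. They had GGGCGG in 61.5%, GCATGCGC in 4.17%, CACGTG in 11.2%, TATAAA in 4.17% and AACCACA in 1.6%. For them the closer comparison is with 376 windows of close overlapping-head pairs that no member region reached. Those had CCAAT in 37.8%, GGGCGG in 58%, GCATGCGC in 3.72%, CACGTG in 10.4%, TATAAA in 5.05% and AACCACA in 3.99%. They had CCGGAAG in 20.7%, AAGATGGCG in 2.66% and TGACGTCA in 2.13%. The windows of a head-to-head pair overlap, so that its genes share matches, GC boxes and CpG content go together, and no test was made.

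The threshold of 1 kb cut through a continuous range. Just inside it were Prkar1a and Fam20a (farther gene end at 1000 bp), Kcnab2 and Nphp4 (999 bp) and Gm13272 and Ifnz (986 bp). Just outside were B9d2 with Tmem91 (1003 bp), Tmem259 with Cnn2 (1015 bp) and Serf2 with Serinc4 (1024 bp). Folds were 2.73 and 2.40 at Kcnab2 and Nphp4, 2.58 and 3.02 at Gm13272 and Ifnz, 3.22 and 5.27 at B9d2, 2.17 and 3.99 at Tmem259, and 2.11 and 2.09 at Serf2.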

How the data were processed

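The 2 H3K27ac libraries came from sorted double-negative thymocytes. Per the submitters' processing notes, Bowtie2, MACS 1.4.2 and mm10 were used. Each peak list covers 1 library, has the layout of MACS2 broad peaks and names removal of duplicates. The calling cutoff and the control sample are not stated by any source used here. The fold of each peak is a ratio from the authors' caller, and −log10 p-value, −log10 q-value and score were deposited by the authors too. The score entered no result. Depth is unknown.

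The lists hold 12228 and 9429 peaks on chromosomes 1 to 19 and X. Peaks that overlapped by at least 1 bp were merged. Gene bounds came from RefSeq (GRCm38.p6), and strand, for 17274 of 21631 protein-coding genes, from its promoter table. Exons and introns were not separated. The annotated bounds of a gene can differ from the start in the promoter table.

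Named regions follow a rule: the 10 widest, the 10 tallest by the lower fold, those at 4 or more genes, known pairs, 6 lists and marker genes, the shortest and longest distances per orientation, and those nearest the 1 kb limit. Other named regions (examples from the remaining lists, members with coinciding ends or no start, H2A and H2B pairs, and the even and uneven examples) were chosen after their values were seen. Histone genes were also matched by older symbols. Members, 16 gene lists and motifs were chosen with earlier results of these data known. Some items are not reported here. No test was made, because the 2 replicates form 1 group. Member calling was checked on simulated data. Python 3.11.15, pandas 2.3.3 and NumPy 2.4.6 were used.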

Additional observations from a re-analysis of the deposited data

How the results depend on the processing

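The count of 644 members was between 518 and 790 with a gene-end window of 500 bp or 2.5 kb, peaks overlapping by 50% of the shorter, lncRNA ends allowed, no numbered or read-through gene models, or no chromosomes 6, 9, 14 and 17. With q-values of at most 0.05 it was 107. With peaks of 1 replicate alone it was 803 (without replicate 1) and 933 (without replicate 2). The share of head-to-head pairs, 48.0% (exact 95% binomial interval 43.5 to 52.5%, counting error only), was 40.9% with the window of 2.5 kb and 46.2 to 51.2% under the other alternatives. The median width of 1256 bp was 781 to 881 bp with either replicate left out, and 1226 to 1295 bp under the other alternatives. With 1 list, peaks are not merged with the other's, and regions without a peak in the other list enter as well. The part of each in the lower width was not tested. The median end-to-end distance of 185 bp was 162.5 bp with the window of 500 bp and 256.5 bp with that of 2.5 kb, as the window bounds it. It was 194 bp with lncRNA ends allowed, 174 bp without numbered gene models, 199.5 bp without the 4 chromosomes (the cause was not tested for these), 172 to 184 bp with a replicate left out, and 178 and 181 bp with the q-value limit and the stricter overlap. No paired analysis was possible because the 2 replicates form 1 group. Depth is unknown, so a pair without a shared region is not shown to lack acetylation.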
